A study of Homo sapiens with 12 samples.

Results

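Phenobarbital (PB) was given to human HepaRG cells with and without the constitutive androstane receptor (CAR), and the change that PB made in the knockout cells was compared, locus by locus, with the change it made in wild-type cells. The comparison is a difference of differences, (KO PB minus KO DMSO) minus (WT PB minus WT DMSO), on log2(CPM + 0.5). It covered every locus of the deposited expression table with at least 1 CPM in at least 2 of the 12 libraries, which were 15792 of 15822 loci. The 30 loci left out reached at most 0.997 CPM in their second highest library, and the lowest of those kept reached 1.01 CPM there. The 8 libraries of the comparison are 2 each of WT with DMSO, WT with PB, KO with DMSO and KO with PB.

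HepaRG is a line from a human liver tumour that differentiates into cells resembling hepatocytes and bile duct cells. Wild-type (WT) cells were compared with cells labelled hCAR-KO (KO here), and each genotype was treated with the solvent DMSO, with PB, or with CITCO, a synthetic agonist of human CAR. All groups are the same line in culture. The sources used here give neither the manner of the knockout nor the number of KO clones, doses or exposure times. Nothing in the labels says that duplicates are separate cultures, and the p-values below therefore rest on a spread between libraries that may be technical. Values are CPM, counts per 1e6 reads as the authors scaled them. A positive difference means that the log2 change with PB was more upward in KO than in WT cells, and a locus was called when limma's Benjamini-Hochberg adjusted p over all 15792 loci was under 0.05.

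As background, CAR (gene NR1I3) is a nuclear receptor of hepatocytes that is kept in the cytoplasm. PB does not bind it but lowers signalling through the EGF receptor, after which CAR is dephosphorylated, enters the nucleus and, as a heterodimer with RXR, raises genes of drug oxidation, conjugation and export. Its relative the pregnane X receptor (PXR, gene NR1I2) is a receptor of broad ligand range that PB also activates in human cells, and both receptors bind the same kinds of paired AGGTCA-like hexamers. CYP2B6 is the usual marker of CAR activity and CYP3A4 that of PXR activity, although each receptor acts on both genes.

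The promoters of the CYP3A genes on chromosome 7 are shown because these neighbouring genes moved in opposite ways in the comparison and because a known element for both receptors, an everted repeat with a 6-base spacer, lies close to their start sites. The capitals mark that element in the 250 bases before each start (RefSeq, GRCh38.p14, minus strand, written 5′ to 3′). The stretches are chr7:99784185-99784434 for CYP3A4, chr7:99679997-99680246 for CYP3A5 and chr7:99735197-99735446 for CYP3A7.
CYP3A4: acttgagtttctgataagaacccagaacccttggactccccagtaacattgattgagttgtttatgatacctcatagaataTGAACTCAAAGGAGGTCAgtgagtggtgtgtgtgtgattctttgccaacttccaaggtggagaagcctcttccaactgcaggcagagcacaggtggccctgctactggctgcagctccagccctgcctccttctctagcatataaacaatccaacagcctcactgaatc
CYP3A5: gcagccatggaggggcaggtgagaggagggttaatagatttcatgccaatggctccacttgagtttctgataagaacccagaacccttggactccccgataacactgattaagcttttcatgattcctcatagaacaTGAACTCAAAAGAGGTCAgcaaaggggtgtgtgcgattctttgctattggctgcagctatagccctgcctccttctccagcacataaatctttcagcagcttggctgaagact
CYP3A7: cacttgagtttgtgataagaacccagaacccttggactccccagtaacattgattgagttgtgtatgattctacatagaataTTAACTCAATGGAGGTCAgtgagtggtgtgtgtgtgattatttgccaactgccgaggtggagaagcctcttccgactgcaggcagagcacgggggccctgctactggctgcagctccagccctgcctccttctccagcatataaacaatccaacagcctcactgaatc
Counted from the start site, the element begins 169 bases before it in CYP3A4, 113 in CYP3A5 and 168 in CYP3A7. Against the CYP3A4 element, with positions counted from 1 at its 5′ end, CYP3A5 carries G11A and CYP3A7 carries G2T and A10T. Over the RefSeq windows of 300 bases, which add 50 bases after the start, CYP3A4 and CYP3A7 were identical at 282 of 299 aligned bases (94.3%), and CYP3A4 and CYP3A5 at 207 of 241 (85.9%). The exact motif TGAACTNNNNNNAGGTCA, searched on both strands, was in 3 of all 35116 promoter windows (0.00854%). Of the 152 genes called in the comparison, 110 had a RefSeq promoter entry, and the motif was in that of CYP3A4 and that of CYP3A5. The CYP3A7 element has 1 letter outside the motif, and a match or its absence is a description of these letters only.

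NR1I3 transcript was present in every library. Its level was 11.5 and 12 CPM in WT DMSO, 14.8 and 15.5 CPM in WT PB, 11 and 10.6 CPM in KO DMSO, and 16.2 and 15.6 CPM in KO PB libraries. KO libraries lay slightly below WT libraries under DMSO and slightly above them under PB, and since the labels do not give the edit, this level checks nothing about the knockout. The PB response of NR1I3 itself did not differ by a called amount (difference 0.18, 95% interval -0.08 to 0.44, adjusted p = 0.718).

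Libraries held 49.3 to 66.5 times 1e6 reads, and their summed values were 1.07 to 1.11 times 1e6 in WT and 0.900 to 0.935 times 1e6 in KO libraries, so the scaling differs between genotypes. A constant scaling of a genotype cancels in the difference of responses: rescaling each library to its total moved the median difference of all loci by -0.01. KO and WT cells already differed before PB at 9106 loci under DMSO (57.7% of those tested), so most responses started from unequal levels. These are bulk cultures, in which fewer cells of a type and less RNA per cell cannot be told apart. Of the markers of other cells, 7 of 13 biliary and progenitor genes were in the table, with sums of 617 to 661 CPM in WT DMSO, 579 to 616 CPM in WT PB, 294 to 305 CPM in KO DMSO and 293 to 294 CPM in KO PB libraries. The 9 of 12 mesenchymal markers in the table summed to 7733 to 8166 CPM (WT DMSO), 7734 to 7866 CPM (WT PB), 6899 to 7318 CPM (KO DMSO) and 7591 to 7690 CPM (KO PB). Of 12 leukocyte and endothelial markers 3 were in the table, PECAM1, KDR and CD14, and their sum was 82.2 to 96 CPM in KO and 89.6 to 118 CPM in WT libraries. The hepatocyte gene ALB had group means of 126520.1 to 127568 CPM in WT and 41313 to 43520 CPM in KO cells.

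PB changed 1014 loci in WT cells (6.42% of those tested, with 420 or 2.66% higher and 594 or 3.76% lower) and 1099 in KO cells (6.96%, 611 higher and 488 lower). The change differed between the genotypes at 159 loci (1.01%), 126 in the positive direction (0.798%) and 33 in the negative (0.209%), and 1522 loci had an unadjusted p under 0.05. Called or not, the difference was above 0 at 8282 of the 15792 loci. Counts of called differences in the gene lists below stand beside the 1.01% of all loci. The lists were chosen with earlier results of these data known, and genes of a list are not independent. Their counts, medians and shares above 0 are therefore descriptions without a test. The sizes ran from 0.18 to 1.89 with a median of 0.49, and 11 loci differed at least 2-fold upward and 9 at least 2-fold downward. Of those 33 negative loci 8 are near-identical copies of the 5.8S ribosomal RNA gene RNA5-8S5, which leaves 25. These copies are also 8 of the 9 loci with a 2-fold negative difference, and the other is NOX4, an NADPH oxidase (-1.17), named after its values were seen. The count of 159 was 66 without KO PB 1, 71 without KO PB 2 and 82 without KO DMSO 2, and 52 loci were called in all 8 fits that leave out 1 library. It was 84 with only the 8 DMSO and PB libraries and 25 with a prior variance that does not follow expression. With that constant prior, 17 of the 70 named loci kept their call, among them CYP2C8, CYP3A4, CYP3A7, CYP2B6, ALAS1, ABCB1, ABCG8, GPX2, FMO5, SCGN, AKAP12, AKR1D1, POSTN, MUC13 and FOXN4, and the others lost it.

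**Figure D1:**
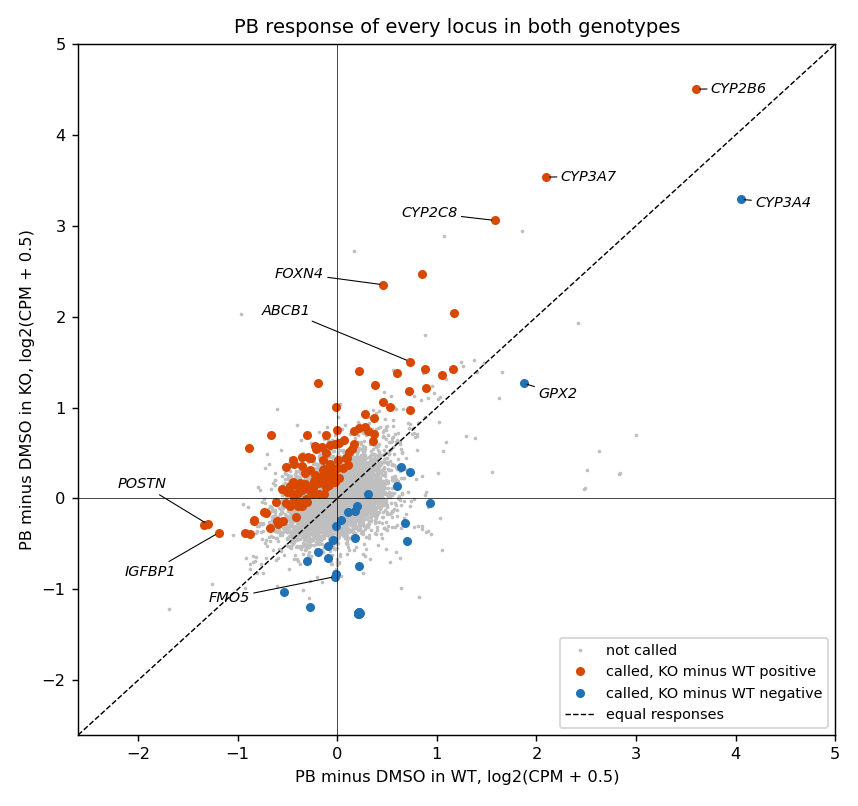
PB minus DMSO on log2(CPM + 0.5) in WT cells (horizontal axis) and in KO cells (vertical axis) for all 15792 loci, each point 1 locus; orange and blue points are the 126 positive and 33 negative called differences, grey points are not called, and the dashed line marks equal responses. The induced P450 genes lie far to the upper right with CYP3A4 below the line and CYP2B6, CYP2C8 and CYP3A7 above it, and most called points lie near the origin.

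The loci that PB raised most in WT cells were mostly raised in KO cells as well. Of 26 loci at least 2-fold higher with PB in WT cells, 21 (80.8%) were called higher in KO cells, where 3.87% of all loci were, and the median ratio of the KO to the WT log2 change was 1.00. The difference itself was called for 8 of the 26, as a larger rise in KO cells for 6 and as a smaller one for 2, CYP3A4 and GPX2. WT and KO responses share no library. The 5 loci not called in KO cells, named after their values were seen, were COL11A2, CPLX2, NECAB2, ACOT12 and AKR1B15, all under 10 CPM in every library, and none had a called difference. ACOT12, an acyl-CoA thioesterase, was at 3.88 and 3.94 CPM in WT DMSO, 9.03 and 8.36 CPM in WT PB, 1.91 and 1.22 CPM in KO DMSO, and 2.88 and 2.02 CPM in KO PB libraries (difference -0.54, 95% interval -1.04 to -0.03, adjusted p = 0.484). CPLX2 rose in WT cells from 2.1 and 2.68 to 4.93 and 5.68 CPM and had 0.301 and 0.277 against 0.405 and 0.513 CPM in KO cells (difference -0.73, interval -1.24 to -0.22, adjusted p = 0.266).

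Over all 420 loci raised in WT cells, 234 (55.7%) were called higher in KO cells, which is 38.3% of the 611 raised there. Of 594 loci lowered in WT cells 234 (39.4%) were called lower in KO cells, where 3.09% of all loci were, and these are 48.0% of the 488 lowered there. Rises thus had the larger share of the WT calls and falls the larger share of the KO calls, and this difference was not tested. A difference was called for 34 of the 420 (22 larger in KO, 6 smaller, 6 with opposite signs) and for 56 of the 594 (2 larger, 24 smaller, 30 with opposite signs). Across all 15792 loci the WT and KO changes had r = 0.427, where loci are not independent.

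By the signs of the fitted changes, the 159 loci fall into 6 classes. A rise was larger in KO cells at 37 loci and smaller at 6, a fall was smaller in KO cells at 24 and larger at 10, 65 had a negative WT and a positive KO change, and 17 the reverse. At 47 loci both responses were called, at 43 that in WT cells only, at 67 that in KO cells only, and at 2 (RP11-313P13.3 and INPP5B, named after their values were seen) neither. The 8 copies of RNA5-8S5, which count as 1 gene, are among the 17 and among the 67. Of the 37 larger rises 24 started from a called lower level in KO cells, as 29.4% of all loci did, and of the 24 smaller falls 23 started from a called higher level, as 28.3% of all loci did. The DMSO libraries enter both the start and the response, so nothing is read from these shares. The classes are made from the tested values and describe them.

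The drug-metabolising P450 genes rose in both genotypes, and more of them rose by a larger than by a smaller log2 amount in KO cells. The list of P450 genes known to be induced through CAR and PXR had 11 members in the table, and all 11 rose in WT and in KO cells. Of these, 6 had a called positive difference, among them CYP2C8, CYP3A7, CYP2B6, CYP3A5 and CYP2C18, and 1 a negative one, CYP3A4. The median difference of the list was 0.27, against 0.01 for all loci. CYP2A7 and CYP2C19 were not analysed here.

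CYP2B6, which oxidises bupropion and cyclophosphamide, was at 35.2 and 37.1 CPM in WT DMSO, 442 and 447 CPM in WT PB, 10.2 and 8.95 CPM in KO DMSO, and 229.9 and 226 CPM in KO PB libraries. The KO libraries lay below the WT libraries under both treatments, and the rise was 23.8-fold in KO and 12.3-fold in WT cells (difference 0.90, SE 0.082, n = 2 a group, adjusted p = 6.65e-06). CYP2C8, an enzyme of paclitaxel oxidation, stood at 137 and 128, then 415 and 383 CPM in WT cells, and at 32.1 and 33.7, then 276 and 279.6 CPM in KO cells. Its fold was 3.01 in WT and 8.44 in KO cells (difference 1.47, SE 0.068, adjusted p = 6.93e-10), and the groups of libraries did not overlap under DMSO or PB.

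The CYP3A genes split. CYP3A4, the main drug-oxidising P450 of adult liver, was at 242 and 232 CPM in WT DMSO, 4029.7 and 3826 CPM in WT PB, 1079.9 and 1101 CPM in KO DMSO, and 10414 and 10929 CPM in KO PB libraries. Its level was thus higher in KO cells under both treatments, while its fold was smaller, 9.79 against 16.6 (difference -0.76, SE 0.049, adjusted p = 9.81e-08). CYP3A7, the fetal form, was at 67.7 and 66 CPM in WT DMSO and 45.9 and 56 CPM in KO DMSO libraries, and PB brought it to 298 and 277 CPM in WT and 549 and 642 CPM in KO libraries. The order of the genotypes reversed between DMSO and PB, with folds of 4.30 in WT and 11.7 in KO cells (difference 1.44, SE 0.11, adjusted p = 9.34e-07). CYP3A5, which shares many substrates with CYP3A4, went from 329 and 319.6 to 542 and 529 CPM in WT and from 174 and 172 to 372 and 414 CPM in KO libraries (difference 0.46, SE 0.061, adjusted p = 0.000505). CYP3A43, another gene of the cluster, had no called difference (-0.26, 95% interval -0.76 to 0.24, adjusted p = 0.82). The CYP3A genes are close in sequence, and how the authors' counting split reads between them is not given in the sources used here, so values of single members carry that uncertainty.

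For the remaining P450 genes of the list the difference was small or uncalled. CYP2C18 had a difference of 0.27 (SE 0.06, adjusted p = 0.0355), a call that was lost without KO DMSO 1 or 2, KO PB 1 or 2, WT DMSO 1 or WT PB 2, at adjusted p from 0.0907 to 0.242. CYP2A6, the nicotine oxidase, went from 59.1 and 61.8 to 151 and 163 CPM in WT and from 113 and 108 to 320.0 and 316 CPM in KO libraries (difference 0.15, 95% interval 0.01 to 0.29, adjusted p = 0.481). CYP2A13, its close paralog, had 0.27 (interval -0.15 to 0.68, adjusted p = 0.755). CYP2B7P, a pseudogene beside CYP2B6 whose reads can be mistaken for it, had -0.49 (interval -0.75 to -0.22, adjusted p = 0.0903), from 9.86 and 8.16 to 52.3 and 48.3 CPM in WT and from 7.64 and 8.32 to 31.3 and 32.5 CPM in KO libraries.

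**Figure D2:**
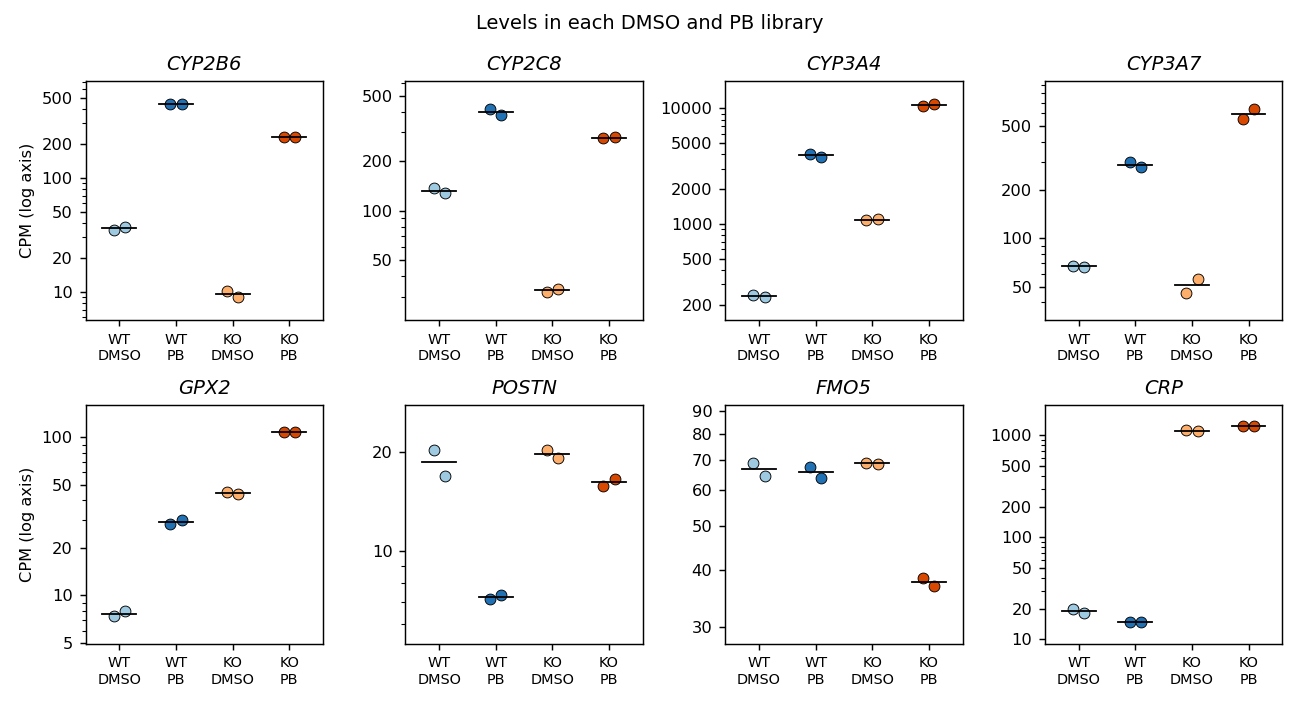
CPM (log axis) of 8 genes in the 2 libraries of each DMSO and PB group, with a line at the group mean. CYP2B6 and CYP2C8 start lower in KO cells and stay lower under PB, CYP3A4 is higher in KO cells throughout, CYP3A7 changes order, and CRP stands at 14.7 to 19.7 CPM in WT and at 1094 CPM or more in KO libraries.

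The same responses read as a gain in level gave another order. In WT cells CYP2B6 gained 409 CPM and in KO cells 218 CPM, and CYP2C8 gained 266 and 245 CPM, so for both genes the larger fold in KO cells went with the smaller gain. For CYP3A4 the gain was 3691 CPM in WT cells against 9581 CPM in KO cells, the reverse of its folds. CYP3A7 (221 and 545 CPM) gained more in KO cells on either scale. Among all 159 loci, the sign of the difference of mean CPM changes was opposite to that of the log2 difference at 19, which include CYP2B6, CYP2C8, CYP3A4, AKR1C2, AKR1B10, EPHX1 and GPX2. The gains in CPM are a description with no test.

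**Figure D3:**
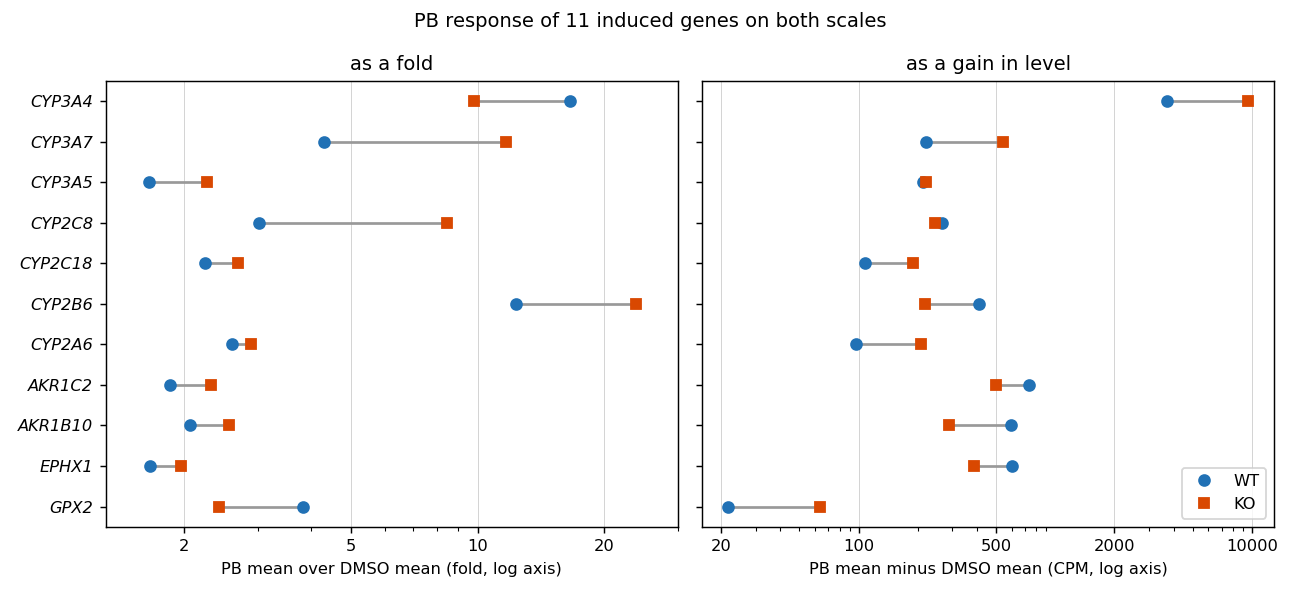
PB response of 11 genes as the ratio of the PB to the DMSO mean (left, log axis) and as the difference of the means in CPM (right, log axis), with circles for WT and squares for KO cells (n = 2 libraries a mean). The order of the genotypes turns between the panels for CYP3A4, CYP2C8, CYP2B6, AKR1C2, AKR1B10, EPHX1 and GPX2.

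Among the genes that supply P450 enzymes with electrons and heme, 5 of 14 rose in both genotypes and 1 fell in both. ALAS1, which makes the first intermediate of heme, was at 69.3 and 69.6, then 96.5 and 94.2 CPM in WT and at 58.8 and 56.6, then 123 and 119.6 CPM in KO libraries. The KO libraries lay below the WT libraries under DMSO and above them under PB (difference 0.61, SE 0.075, adjusted p = 0.000231). POR, which passes electrons to microsomal P450 enzymes, went from 202 and 215 to 377 and 411 CPM in WT and from 219 and 213 to 472 and 457 CPM in KO libraries, with no called difference (0.19, 95% interval 0.05 to 0.33, adjusted p = 0.295). CYB5A, cytochrome b5, rose by 1.01 in WT and 1.10 in KO cells (difference 0.09, interval -0.02 to 0.19, adjusted p = 0.634). Of the 14 genes ALAS1 alone had a called difference.

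In the list of phase II enzymes, which holds conjugation enzymes and the hydrolase EPHX1, as many genes rose in WT as in KO cells. Of its 18 genes, 1 fell in WT and 2 fell in KO cells. There were 10 that rose in WT and 10 in KO cells, 9 of them in both, and 1 gene had a called difference. It was EPHX1, the microsomal epoxide hydrolase, at 930.2 and 921 then 1519 and 1544 CPM in WT, and 409 and 388 then 791 and 776 CPM in KO libraries (difference 0.25, SE 0.047, adjusted p = 0.0115). This call was lost without KO DMSO 2, KO PB 1 or KO PB 2 (adjusted p from 0.0509 to 0.107). For the bilirubin glucuronosyltransferase UGT1A1 the changes were 0.49 in WT and 0.58 in KO cells (difference 0.09, interval -0.01 to 0.19, adjusted p = 0.595).

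Among 20 transporters of drugs and bile constituents, 9 rose in WT and 9 in KO cells, 7 in both, and 4 had a called positive difference. ABCB1, the efflux pump P-glycoprotein, was at 138 and 136 then 237 and 217 CPM in WT, and 90.3 and 90.5 then 258 and 257 CPM in KO libraries, so KO cells went from below to above the WT level (difference 0.78, SE 0.063, adjusted p = 1.90e-06). ABCG8, which with ABCG5 exports sterols, was at 161 and 160.4 then 162 and 176 CPM in WT and rose in KO cells from 28.3 and 28 to 45.1 and 43.2 CPM (difference 0.57, SE 0.071, adjusted p = 0.000283). The WT libraries stayed far above the KO libraries. Its partner ABCG5 had 0.61 (SE 0.12, adjusted p = 0.0166; between 0.0524 and 0.125 without KO DMSO 1, KO DMSO 2, KO PB 1 or WT PB 1), and ABCC6, a liver ATP exporter, had 0.35 (adjusted p = 0.0248; between 0.0755 and 0.207 without the same libraries). ABCC2, which carries conjugates into bile, rose by 0.97 in WT and 1.16 in KO cells, with no called difference (0.20, interval 0.07 to 0.32, adjusted p = 0.162).

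Of 15 aldo-keto reductases and targets of NRF2, the oxidant-sensing factor, 11 rose in WT cells and the same 11 with 1 more in KO cells. AKR1C2, a reductase of steroids and carbonyls, went from 874 and 844 to 1611 and 1573 CPM in WT and from 374 and 383 to 875 and 880.2 CPM in KO libraries (difference 0.32, SE 0.047, adjusted p = 0.00126). AKR1B10, a retinal reductase, had 0.31 (SE 0.048, adjusted p = 0.00215). GPX2, a glutathione peroxidase, was at 7.36 and 7.95 CPM in WT DMSO, 28.5 and 30.1 CPM in WT PB, 45.2 and 44 CPM in KO DMSO and 108 CPM in both KO PB libraries. Like CYP3A4 it started higher in KO cells and rose by a smaller fold there (difference -0.60, SE 0.089, adjusted p = 0.00142). The 4 AhR targets in the table, among them CYP1A1, had 0 called differences by limma (0 also at an unadjusted p under 0.05) and median changes of 0.20 in WT and 0.24 in KO cells.

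Beyond CYP3A4 and GPX2, 4 loci rose in WT cells and had a smaller positive change in KO cells with a called difference. CXCL13, a B-cell chemokine, had 418 and 377 CPM in WT DMSO, 626 and 577 CPM in WT PB, 82 and 83.3 CPM in KO DMSO and 90.4 and 91.4 CPM in KO PB libraries. It rose in WT cells (0.60, adjusted p = 5.98e-07) and was uncalled in KO cells (0.14, adjusted p = 0.161), with a difference of -0.46 (SE 0.076, adjusted p = 0.00369). ALDH1L1, a folate enzyme, had -0.29 (332 and 329 to 506 and 522 CPM in WT, 141 and 130.5 to 177 and 167 CPM in KO libraries, adjusted p = 0.022). That call was lost without KO DMSO 1, KO PB 2 or WT PB 2 (adjusted p from 0.0639 to 0.193). SPP1, which encodes osteopontin, had -0.45 (adjusted p = 0.034; between 0.0903 and 0.248 without KO DMSO 1 or 2, KO PB 1 or 2, WT DMSO 1 or WT PB 1). CMBL, a hydrolase of prodrugs, had -0.26 (adjusted p = 0.0195; between 0.0933 and 0.125 without KO DMSO 2, KO PB 1 or KO PB 2).

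Other loci rose in WT cells and had a negative KO change. SCGN, the calcium binding protein secretagogin, was at 132 and 131 then 149.7 and 149 CPM in WT, and 89.8 and 83.7 then 63.1 and 65.2 CPM in KO libraries (difference -0.61, SE 0.069, adjusted p = 0.000114). Both of its responses were called, in opposite directions. MRO, whose product is called maestro, had 4.44 and 5.31 then 8.16 and 7.95 CPM in WT and 2.81 and 2.84 then 2.03 and 2.52 CPM in KO libraries (difference -0.94, adjusted p = 0.0175; between 0.054 and 0.129 without KO DMSO 1, KO DMSO 2, KO PB 1 or WT DMSO 1). NUDT16, a nucleotide hydrolase, had -0.29 (adjusted p = 0.0222; between 0.0583 and 0.167 without KO DMSO 2, KO PB 1 or 2, WT DMSO 1 or WT PB 2).

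A few genes fell in KO cells with PB while their WT change was uncalled. FMO5, a flavin monooxygenase, was at 69 and 64.6 CPM in WT DMSO, 67.6 and 64 CPM in WT PB, 69.1 and 68.6 CPM in KO DMSO and 38.5 and 36.9 CPM in KO PB libraries. Only the KO PB libraries stood apart (difference -0.84, SE 0.079, adjusted p = 9.05e-06). AKAP12, a scaffold of protein kinase A, fell from 163 and 156 to 103 and 99.4 CPM in KO libraries and was at 127 and 124 then 119 and 115 CPM in WT libraries (difference -0.56, SE 0.065, adjusted p = 0.000156). HSD3B1, a steroid dehydrogenase, had -0.93 (SE 0.14, adjusted p = 0.00181), with 28.5 and 27.9 then 24.6 and 22 CPM in WT and 17.7 and 16.3 then 8.09 and 6.24 CPM in KO libraries. MUC13, a mucin, had -0.96 (SE 0.15, adjusted p = 0.00176; 4.48 and 4.63 then 5.6 and 5.14 CPM in WT, 19.7 and 19.8 then 12.2 and 11.1 CPM in KO libraries). CYP2E1, the ethanol oxidase, instead had a called fall in both genotypes, by 0.54 in WT and 1.03 in KO cells (difference -0.49, adjusted p = 0.0268). This gene was at 133 and 132 then 92.6 and 89.7 CPM in WT and 13.2 and 11 then 5.86 and 5.47 CPM in KO libraries. In CPM its fall was larger in WT cells (-41.2 against -6.46 in KO cells). The called difference was lost without any of 6 libraries, KO DMSO 1, KO PB 1 or 2, WT DMSO 1 and WT PB 1 or 2. IGFBP5 had -0.82 (adjusted p = 0.0409; between 0.0511 and 0.232 without KO DMSO 1 or 2, KO PB 1 or 2, WT DMSO 2 or WT PB 2).

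Most genes of the hypoxia response fell with PB in WT cells, and some had a called difference in the positive direction. Of 13 genes tested, 11 fell in WT and 7 in KO cells, all 7 among those 11, and 6 had a called positive difference, EGLN3, CA9, NDRG1, PDK1, LDHA and PFKFB4. All 13 differences were above 0, where 8282 of all 15792 were, with a median of 0.29 against 0.01 for all loci. The median changes were -0.42 in WT and -0.18 in KO cells. CA9, a carbonic anhydrase, was at 159.6 and 158 then 83.8 and 89.1 CPM in WT and 179 and 171 then 135 and 133 CPM in KO libraries (difference 0.49, SE 0.065, adjusted p = 0.000505). EGLN3, an oxygen-sensing prolyl hydroxylase, fell in WT libraries from 61 and 59.6 to 37.9 and 34.4 CPM and was at 160.0 and 164 then 143 and 149 CPM in KO libraries (difference 0.58, SE 0.074, adjusted p = 0.000341). For NDRG1, a stress-induced gene, the difference was 0.32 (SE 0.052, adjusted p = 0.00369), and its loss in CPM was larger in KO cells (221 CPM) than in WT cells (131 CPM), the opposite order. PFKFB4 likewise changed by -3.47 CPM in KO and -2.76 CPM in WT cells. The calls of LDHA, PDK1 and PFKFB4 were each lost without 5 or more of the 8 libraries (KO DMSO 1, KO PB 1, KO PB 2, WT DMSO 1 and WT PB 2 in each case), at adjusted p up to 0.289. With a constant prior variance none of the 6 calls was kept (adjusted p = 0.0523 for EGLN3, 0.0797 for CA9 and 0.187 for NDRG1), and with only the 8 libraries 3 were.

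Other falls that were smaller in KO cells on the log2 scale included genes of matrix and secreted regulators. POSTN, the matrix protein periostin, fell from 20.3 and 16.9 to 7.14 and 7.32 CPM in WT libraries and was at 20.3 and 19.2 then 15.8 and 16.5 CPM in KO libraries (difference 1.01, SE 0.13, adjusted p = 0.000438). IGFBP1, an insulin-repressed binding protein, fell from 14.5 and 15.8 to 6.7 and 6 CPM in WT libraries and from 43.7 and 52 to 36.2 and 37 CPM in KO libraries (difference 0.81, SE 0.12, adjusted p = 0.00162). In CPM its change was larger in KO cells (-11.3 against -8.79 in WT cells), as was that of KRT6A (-34.1 against -7.76). KRT6A, a keratin, had 0.54 (SE 0.086, adjusted p = 0.00276), and the noncoding RNA H19 had 0.59 (adjusted p = 0.00771; 0.0511 and 0.0715 without KO DMSO 1 or KO PB 1). The locus RP11-14C10.5, of low level, had 1.04 (adjusted p = 0.0176; between 0.0541 and 0.127 without KO DMSO 1, KO PB 1 or 2, WT DMSO 1 or WT PB 1). Of the 9 mesenchymal and matrix markers, POSTN and DCN (decorin, 0.39, adjusted p = 0.0275; between 0.0899 and 0.214 without KO DMSO 2, KO PB 1 or 2, WT DMSO 1 or WT PB 2) were called. The mesenchymal sum overlapped between WT DMSO and WT PB libraries and was higher with PB in KO libraries. Under DMSO this sum was lower in KO than in WT libraries, while DCN was higher there (log2 difference 1.95) and POSTN was close (0.09). The part of the sum in these results was not tested.

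The called PB changes of acute phase genes were all falls in WT cells and all rises in KO cells, but not always of the same genes. Of 14 tested, 6 fell and 0 rose in WT cells by limma (1 rose at an unadjusted p under 0.05), while 5 rose and 0 fell in KO cells (0 fell also unadjusted). Of the 14 differences 13 were above 0 (median 0.14), where 8282 of all 15792 were, and 5 were called, against 1.01% of all loci. CRP, the C-reactive protein, was at 19.7 and 18.2 then 14.9 and 14.7 CPM in WT and at 1118 and 1094 then 1225 and 1231 CPM in KO libraries, so that its level differed far more between genotypes than with PB (difference 0.50, SE 0.061, adjusted p = 0.000236). HP, haptoglobin, was at 11735 and 12206 then 11195 and 10924 CPM in WT and 15022 and 14906 then 16338 and 16854 CPM in KO libraries (difference 0.26, SE 0.044, adjusted p = 0.00433; 0.0524 without KO PB 2). The other called members were FGB (0.23), ITIH3 (0.61) and ORM1 (0.20), whose calls were lost without KO PB 1, KO PB 2, WT DMSO 1 or WT PB 2 and further libraries, at adjusted p up to 0.222. FGB and ITIH3 had a called fall in WT cells without a called change in KO cells. ORM1 had a called rise in KO cells without a called change in WT cells. None of the 5 called differences was kept with a constant prior variance (adjusted p = 0.0575 for CRP and 0.244 for HP), and 2 were with only the 8 libraries.

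Called differences among the secreted hepatocyte proteins were all positive. Of 19 tested, 3 fell and 3 rose in WT cells, 8 rose and 0 fell in KO cells by limma (1 fell at an unadjusted p under 0.05), and 5 had a called positive difference (list median 0.15). AHSG, fetuin-A, fell in WT libraries from 439 and 449 to 353 and 356 CPM and rose in KO libraries from 241 and 231 to 265 and 260.0 CPM (difference 0.48, SE 0.056, adjusted p = 0.000163). SERPINA1, alpha-1 antitrypsin, rose in KO libraries from 8468 and 8027 to 9869.8 and 10003 CPM and was at 14435 and 14513 then 13971 and 14308 CPM in WT libraries (difference 0.30, SE 0.044, adjusted p = 0.00126). GC, the vitamin D binding protein, had 0.23 (adjusted p = 0.00846; 0.0844 without KO PB 2). APOH had 0.21 (adjusted p = 0.022; between 0.0618 and 0.185 without KO DMSO 2, KO PB 1 or 2, WT DMSO 1 or WT PB 2). FETUB, with 0.48 (adjusted p = 0.0485), was among the 3 loci closest under the threshold and lost its call without each library but WT DMSO 2. ALB, albumin, had -0.06 (adjusted p = 0.771). A constant prior variance ended all 5 calls of this list as well (adjusted p = 0.0723 for AHSG).

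**Figure D4:**
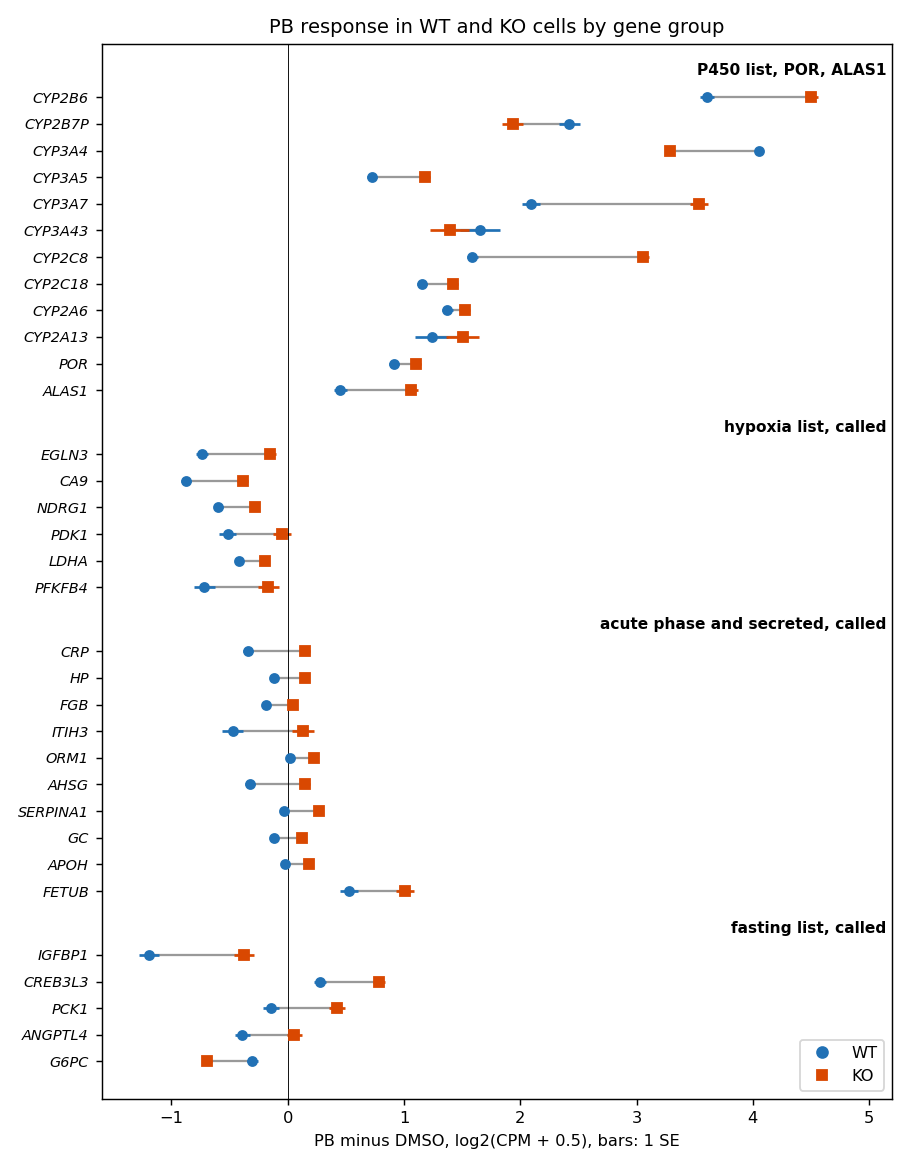
PB minus DMSO on log2(CPM + 0.5) in WT (circles) and KO cells (squares), with bars of 1 SE, for members of the P450 list with POR and ALAS1 and for members with a called difference in the hypoxia, acute phase, secreted protein and fasting lists. Hypoxia genes lie left of 0 with KO nearer to 0, and CRP, HP, AHSG and GC lie left of 0 in WT and right of 0 in KO cells.

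Genes of glucose metabolism moved in both directions. Of 12 genes of gluconeogenesis and fasting 6 had a called difference, 4 positive and 2 negative, and the list median was 0.01. With a constant prior variance none of the 6 calls was kept (adjusted p = 0.0631 for IGFBP1 and 0.0762 for PCK1), and with only the 8 libraries 5 were. G6PC, which releases glucose, fell from 77.4 and 77.8 to 62.7 and 63 CPM in WT and from 102 and 97.1 to 61.4 and 61.1 CPM in KO libraries (difference -0.39, SE 0.066, adjusted p = 0.00442). PCK1, which commits carbon to glucose, was at 49.3 and 46.7 then 44.2 and 42.7 CPM in WT and rose from 15.9 and 16.4 to 21.3 and 22.4 CPM in KO libraries (difference 0.57, SE 0.097, adjusted p = 0.005). CREB3L3, a fasting-induced factor of hepatocytes, rose in both genotypes and more in KO cells (difference 0.51, SE 0.077, adjusted p = 0.00177). IGFBP1, described above, and ANGPTL4, an inhibitor of lipoprotein lipase (0.45, adjusted p = 0.0199), were also called. The ANGPTL4 call was lost without KO DMSO 1 or 2, KO PB 1 or 2, or WT PB 1 (adjusted p from 0.0614 to 0.134).

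Lipid and bile acid genes had few called differences. AKR1D1, the reductase that shapes the bile acid ring, rose from 13.4 and 11.7 to 29.4 and 28.3 CPM in WT and from 15.5 and 15.3 to 65.8 and 64.4 CPM in KO libraries, from close DMSO levels (difference 0.87, SE 0.11, adjusted p = 0.00037). Of the 16 genes listed under bile acids, SLC27A5, which activates bile acids, had 0.42 (adjusted p = 0.0307). That call was lost without each library but WT DMSO 1. HSD3B1, a steroid dehydrogenase counted in the same list, is given above. Of 27 genes of lipid and cholesterol synthesis, THRSP, a lipogenic regulator, was called (0.65, adjusted p = 0.0475; up to 0.291 without 1 library, and lost without each but WT DMSO 1). Of 16 genes of fatty acid oxidation and storage, PLIN2, a coat protein of lipid droplets, was called (0.29, adjusted p = 0.00846; between 0.0589 and 0.0684 without KO DMSO 2, KO PB 1 or KO PB 2). Of 14 urea cycle genes it was CPS1 (0.27, adjusted p = 0.0192; between 0.0607 and 0.125 without KO DMSO 2, KO PB 1 or 2, WT DMSO 1 or WT PB 2).

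Of 26 cell cycle genes, 0 rose in WT cells by limma (1 at an unadjusted p under 0.05) and 4 rose in KO cells, and TOP2A and MKI67 had a called difference. TOP2A, a topoisomerase of dividing cells, was at 68.2 and 66 then 64.6 and 56.8 CPM in WT and 149 and 154 then 186 and 191 CPM in KO libraries (difference 0.45, SE 0.079, adjusted p = 0.00559; 0.0521 without KO PB 2). MKI67 had 0.36 (adjusted p = 0.0128; between 0.0509 and 0.118 without KO DMSO 2, KO PB 1 or KO PB 2). Differences were above 0 for 22 of the 26, where 8282 of all 15792 were, with a median of 0.15. For the 11 genes of growth control linked to CAR, among them GADD45B, limma called 0 differences (1 at an unadjusted p under 0.05).

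Several loci outside the lists had large differences. FOXN4, a forkhead factor, had 1.16 and 1.64 then 1.98 and 2.21 CPM in WT and 1.22 and 0.942 then 7.54 and 7.53 CPM in KO libraries, the largest called difference of all loci (1.89, SE 0.23, adjusted p = 0.000188). SERPINA11, a serpin, went from 10.7 and 13 to 14.7 and 16.3 CPM in WT and from 5.67 and 5.07 to 12.9 and 13.9 CPM in KO libraries (difference 0.87, SE 0.15, adjusted p = 0.0055; 0.0509 without KO PB 2). PNLIPRP2, a lipase, had 1.18 (adjusted p = 0.0391) and ANKRD36C 1.00 (adjusted p = 0.0297), with calls lost without KO DMSO 1 or 2, KO PB 1 or 2, WT DMSO 2 and further libraries (adjusted p up to 0.213 and 0.162). CD24, a surface glycoprotein of progenitor cells, had 0.35 (adjusted p = 0.00734; 0.0751 without KO PB 2), and with MUC13 and SPP1 it makes 3 called of 7 biliary and progenitor markers. The sum of the 7 is given above and was lower in KO libraries, but its members differed. Under DMSO, MUC13 and SPP1 were higher in KO than in WT cells (log2 difference 2.00 and 1.27) and CD24 was lower (-0.63). The part of the sum or of its members in these results was not tested.

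The receptors and coregulators of the pathway had no called difference of response: 0 of 23 loci by limma (1 at an unadjusted p under 0.05), which include NR1I2, RXRA, NR3C1, HNF4A, EGFR and NCOA1. For NR1I2 the difference was -0.13 (adjusted p = 0.736), with changes of 0.04 in WT and -0.09 in KO cells. Lists of ribosomal proteins (22), mitochondrially encoded transcripts (8), interferon genes (15) and genes of ATF4 and the unfolded protein response (15) also had 0 called differences by limma, with medians of 0.05, -0.05, -0.16 and 0.16, and with 3, 1, 1 and 5 differences at an unadjusted p under 0.05. Of the interferon genes 3 of 15 were above 0, and of the ATF4 and unfolded protein genes 14 of 15, against 8282 of all 15792 loci.

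The copies of 5.8S ribosomal RNA had a called negative difference that rested on single libraries. The first of the 8 RNA5-8S5 copies had 4.84 and 5.64 then 5.98 and 6.43 CPM in WT and 9.73 and 12.8 then 3.08 and 6.13 CPM in KO libraries (difference -1.49, SE 0.30, adjusted p = 0.0195; 0.107 and 0.134 without KO DMSO 2 or KO PB 1). Reads of these copies are shared, so they count as 1 gene. The largest differences that were not called, 9 loci of at least 4-fold, differed between duplicates: 7 of them carry clone names, such as FP236383.12 with 0.691 and 20.1 then 31.1 and 49.1 CPM in WT and 3.13 and 91.9 then 10.9 and 76.9 CPM in KO libraries. The part of RNA composition in the called differences was not tested.

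CITCO gives a second treatment of the same genotypes, and its responses share the DMSO libraries with those above, so the values are only set side by side. CYP2B6 changed by 3.55 with CITCO in WT and 0.78 in KO cells, against 3.60 and 4.50 with PB. CYP2A6 changed by 1.20 and 0.05 with CITCO and by 1.37 and 1.52 with PB. GPX2 changed by 1.68 and 0.27 with CITCO against 1.87 and 1.27 with PB, and CYP3A4 by 1.78 and 1.22 against 4.05 and 3.29. For AKR1B10 these were 1.03 and 0.31 with CITCO against 1.05 and 1.35 with PB. The CITCO change was not smaller in KO cells for every member of the P450 list: CYP3A7 changed by 0.85 in WT and 1.04 in KO cells, and CYP3A5 by 0.16 and 0.33, against 0.72 and 1.18 with PB.

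The authors' deposited table named for KO PB against WT PB holds the difference of responses as judged by its values, since over its 14161 loci its fold changes had r = 0.993 with that difference computed here and r = 0.269 with the named comparison. An FDR under 0.05 is given in the authors' deposited table for 281 loci, 202 positive and 79 negative, and 134 of them are among the 159 called here (84.3% of the 159 and 47.7% of the 281). Of the 159, 151 are in the authors' deposited table, all with the same sign. At the edge of the call, FETUB (adjusted p = 0.0485) and RP11-313P13.4 (0.0496) lay just under and ALPP (0.0501), SERINC5 (0.052) and INHBE (0.0532) just over the threshold.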

How the data were processed

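RNA of 12 HepaRG libraries was sequenced, 2 in each of 6 groups of genotype and treatment, per the labels. Per the submitters' processing notes, edgeR 2.12, Cuffdiff 2.1.1, Cufflinks 2.1.1, TopHat2 2.0.10 and Bowtie 1.0.0 were used, without a stated role. The authors deposited 1 table of 15822 loci under the name CPM. The deposited signal was normalized by the authors to a scaled library size, as its totals differ from 1e6, and how that scale was derived is not given in the sources used here. The authors' deposited comparison tables, with p-values, FDR and log2 fold changes, served only as a check. The test planned for normalized values was used. Divided by the worth of 1 read, 100% of each library's deposited values came out whole (tolerance 0.001 reads), but a general check accepted this for WT columns only, so no count model of the difference was run.

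Levels were tested with limma 3.58.1 (R 4.3.3) on log2(CPM + 0.5), a scale that understates changes of low genes. The fit held all 12 libraries in 6 group means (6 residual degrees of freedom) with a variance trend on expression, and adjustment was by Benjamini-Hochberg over 15792 loci. The contrast uses 8 libraries, and CITCO libraries inform the spread. Duplicates differed beyond sampling noise (chi-square per degree of freedom 4.15 to 10.4). The number of libraries, not reads, limits the precision.

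Named genes were NR1I3, the P450 list with POR and ALAS1, up to 10 called loci a direction with the largest difference and up to 8 a direction with the largest WT response that was smaller or opposite in KO cells (both with a group mean of at least 5 CPM and no overlap of the responses), and called members of 25 gene lists, 76 loci in all, of which some are not reported here. Members and lists were chosen with earlier results of these data known. Scripts were tested on simulated data. Alternatives were other pseudocounts, filters, scaling, variance priors, a replicate block, only the 8 libraries, leaving out 1 library, and, added after seeing the data, edgeR 4.0.16 on WT reads.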

Additional observations from a re-analysis of the deposited data

Results flagged for a closer look

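The PB response differed between WT and KO cells at 159 loci, a difference between groups that was tested directly. Both responses were called with opposite signs at 9 loci that fell in WT and rose in KO cells, which include CP and DLGAP5, and at 1 with the reverse, SCGN. The naming rule holds 5 of these. The difference was -0.61 for SCGN, 0.48 for AHSG, 0.50 for CRP, 0.26 for HP and 0.23 for GC. SCGN rose in WT and fell in KO cells, and the other 4 fell in WT and rose in KO cells. No weighing of explanations was made.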

How the results depend on the processing

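None of the 70 named loci with a called difference reversed its direction under any alternative that gave a value. The other loci of the 159 were not checked for this. The count of differing responses, 159, was 25 with a constant prior variance and 84 with only the 8 DMSO and PB libraries, all 84 among the 159. Leaving out 1 library gave 66 to 213 loci, 66 without KO PB 1, 71 without KO PB 2 and 82 without KO DMSO 2. It was 145 with library totals as scaling (143 shared, 75.9% of them positive against 79.2%), and 156 to 163 with the other pseudocounts and filters. The count of PB-changed loci in WT cells, 1014, was 537 with a constant prior variance, 554 with edgeR on reads of the WT libraries, chosen after seeing the data, and 811 to 1102 without 1 library. In KO cells 1099 became 612 with a constant prior variance and 523 to 1298 without 1 library. The count of KO against WT differences under DMSO ran from 7888 to 9331 without 1 library. With the replicate number as a block, 153 loci differed, and THRSP and FETUB lost their call among the 70 named loci called. Deviations of same-numbered libraries correlated at r from 0.0267 to 0.591 between the DMSO and PB groups and down to -0.252 when the CITCO groups are included. The highest values were those of KO DMSO with KO PB (0.591), WT DMSO with WT PB (0.514) and KO DMSO with WT DMSO (0.502). Not every pair of groups passed 0.1, so the main fit did not take the numbers to pair the samples, and the fit with a block is given as an alternative. That block is a single term shared by all libraries, and no fit paired DMSO with PB libraries inside each genotype. Of the 70, 17 were called under every alternative that gave a value (FOXN4 had none with the filter on all 12 libraries) and 34 in every fit without 1 library, and 17 kept the call with a constant prior variance. The cause of these changes was not tested, except that fewer libraries enter some fits.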

Other observations

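Other genes of named kinds had called differences outside the lists; they were picked after their values were seen, so they carry no test as groups. Genes of mitosis were DLGAP5 (0.86, adjusted p = 0.00235 by limma with Benjamini-Hochberg adjustment), CENPI (0.81), CEP55 (0.71), CDCA8 (0.61), IQGAP3 (0.43) and CKAP2 (0.39), each with a negative WT and a positive KO change. DLGAP5, a spindle protein, was at 9.44 and 8.66 then 6.62 and 5.73 CPM in WT and 17.3 and 20 then 23 and 24.4 CPM in KO libraries. Plasma proteins of complement and copper transport also had positive differences, C9 (0.45), CP (0.40, ceruloplasmin) and C8A (0.34). C9, which forms the membrane pore, was at 102 and 94.2 then 93.8 and 85.6 CPM in WT and 396 and 397 then 491 and 499 CPM in KO libraries.

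Enzymes of collagen hydroxylation were P4HA1 (0.56), PLOD1 (0.36) and PLOD2 (0.35). PLOD2 fell in both genotypes, from 346 and 318 to 219.9 and 196 CPM in WT and from 637 and 656 to 513 and 517 CPM in KO libraries. Its fall was smaller in KO cells on the log2 scale and larger there in CPM. EPO, the hormone erythropoietin, had 1.44 (adjusted p = 0.0128), from 0.558 and 0.608 to 0.0335 and 0.143 CPM in WT and 1.86 and 1.14 then 2.52 and 2.26 CPM in KO libraries. These WT levels are close to or below the added 0.5 CPM, which then weighs on the difference. Whether the EPO call holds under the alternatives is not given here. ALDH1A1, a retinal dehydrogenase, rose from 2034 and 1966 to 2608 and 2543 CPM in WT and from 636 and 641 to 1176 and 1187 CPM in KO libraries (difference 0.52, adjusted p = 2.65e-06), with gains of 576 CPM and 543 CPM.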
